A study of Mus musculus with 8 samples.

Results

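Apolipoproteins are the protein parts of the particles that carry lipid through blood. Apob forms the scaffold of very low density lipoprotein in the liver, Apoa1 and Apoa2 are the main proteins of high density lipoprotein, and the small exchangeable members move between particles and set how fast their triglyceride is broken down and cleared. In mice the hepatocyte makes most of them and secretes them, several with triglyceride-rich particles, and the genes are known to respond to nuclear receptors, among them receptors that pair with the retinoid X receptors.

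The 10 genes described here are Apoa1, Apoa2, Apoa4, Apoa5, Apob, Apoc1, Apoc2, Apoc3, Apoe and Apom. They were found as the probes whose gene name on the array was exactly one of these symbols. This gave 16 probes among 41174 gene probes, and 10 genes among the 17354 genes that passed the filter on dim probes. All 10 passed that filter.

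Livers came from male C57Bl/6J mice, 14 weeks old, killed after a 4 h fast. The study compared 4 diet groups of 2 arrays each, named by maternal diet and then diet after weaning. BD_HF mice were born to dams kept on standard breeder chow and received, after weaning, a diet with 60% of its energy from fat (high fat). LF_HF mice had dams moved at embryonic day 10.5 to a defined, vitamin A sufficient low fat diet (12% of energy from fat) and received that same high fat diet after weaning. VAD_VAD mice had the vitamin A deficient form of the low fat diet in both periods. LF_LF mice had the sufficient low fat diet in both periods. BD_HF therefore differs from LF_LF in maternal diet as well as in fat, and no group here combined vitamin A deficiency with high fat. The labels do not say whether each array holds the RNA of 1 animal, so the p-values below measure the spread between these samples, which may be technical.

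Each RNA was hybridised to a one-colour array of 60-base probes, and the scanner software reported a processed intensity for each spot after background subtraction. The letters of the probes show which part of each transcript a value rests on. They are given for Apoa1 and Apoa2, the high density lipoprotein pair, and for Apoa4, which had the widest range of group means. Both Apoc3 probes are given too, and as they overlap they are no independent check on one another. The array's annotation places them on mm9, Apoa1 at chr9:46037921-46037980, Apoa2 at chr1:173155858-173155917 and Apoa4 at chr9:46049661-46050404, all on the plus strand. The Apoc3 probes lie on the minus strand at chr9:46041353-46041412 and chr9:46041363-46041422. The 60 bases of the Apoa4 probe span 744 bases of genome, so it reads across a gap and matches spliced RNA. Capitals mark the 50 bases that the Apoc3 probes share.
Apoa1: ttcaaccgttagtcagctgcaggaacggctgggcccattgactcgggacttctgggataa
Apoa2: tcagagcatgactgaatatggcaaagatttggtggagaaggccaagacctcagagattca
Apoa4: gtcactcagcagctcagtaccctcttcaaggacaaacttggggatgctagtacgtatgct
Apoc3, first probe: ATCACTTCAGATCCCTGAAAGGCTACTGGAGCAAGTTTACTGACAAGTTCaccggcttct
Apoc3, second probe: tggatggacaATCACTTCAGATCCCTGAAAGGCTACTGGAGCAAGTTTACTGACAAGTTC

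Most of these genes lie in a pair of clusters. In the RefSeq annotation of GRCm38.p6, Apoa1, Apoc3, Apoa4 and Apoa5 lie within 43.3 kb of chromosome 9, and Apoe, Apoc1, Apoc4 and Apoc2 within 29.7 kb of chromosome 7. Apoa2 is on chromosome 1, Apob on chromosome 12 and Apom on chromosome 17. After scaling, Apoc2 and Apoa4 were the genes of the 10 whose means lay below LF_LF in both high fat groups, and their RefSeq promoters are shown for that reason. Each sequence is the 250 bases that end just before the annotated start, read on the gene's strand (Apoc2 chr7:19677942-19678191, minus strand, and Apoa4 chr9:46240594-46240843, plus strand, GRCm38.p6). The far end of the Apoc2 window overlaps the annotated Apoc4 gene at chr7:19678084-19681460. Capitals mark AGGTCA, the short motif that many nuclear receptors recognise, searched on both strands.
Apoc2: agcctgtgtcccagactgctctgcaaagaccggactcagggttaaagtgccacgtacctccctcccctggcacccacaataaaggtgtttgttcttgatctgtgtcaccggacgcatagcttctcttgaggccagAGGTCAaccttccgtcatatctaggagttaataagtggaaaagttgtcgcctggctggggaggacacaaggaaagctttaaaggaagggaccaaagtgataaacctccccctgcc
Apoa4: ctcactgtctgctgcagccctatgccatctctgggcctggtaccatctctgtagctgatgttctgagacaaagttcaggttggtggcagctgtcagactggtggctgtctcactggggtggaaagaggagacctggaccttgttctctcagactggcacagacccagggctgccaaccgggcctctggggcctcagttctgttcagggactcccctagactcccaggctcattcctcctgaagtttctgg
The Apoc2 window holds AGGTCA 1 time, 115 bases before the start. The Apoa4 window does not hold these letters. Of 32851 mouse promoter windows of the same length, 14.02% hold them, so the match is a description of the sequence and no more. Promoter sequences were matched for 8 of the 10 genes, in 12 windows, and the only other window with a match was one of the 2 for Apoa2.

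On each of the 8 arrays between 56.5% and 82.2% of gene probes were well above background, and no spot was saturated. LF_HF replicate 1 stood apart from the other arrays. Its 75th percentile of intensity was 496, against 195 to 296 on the other 7, its negative controls averaged 70.5 units, against 20.4 to 25.1, and 2764 of its spots were marked as outliers, against 66 to 365. Replicate arrays correlated at r = 0.988 in BD_HF, 0.918 in LF_HF, 0.977 in VAD_VAD and 0.992 in LF_LF, across genes. Replicate 1 of every group was on slide 1 and replicate 2 on slide 2, so a comparison within a slide is a comparison within a replicate number. The labelled tissue carried its markers: of 18 hepatocyte genes, 16 were on the array, 15 or 16 of them were well above background on each array, and their summed intensity ran from 2094510 to 2935310.

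Ranks were taken over the 17354 genes tested, each with its brightest probe. Apart from Apoa4, the apolipoproteins ranked within the brightest 326 of these on every array that measured them. Apoc1, an inhibitor of lipoprotein clearance, ranked 2nd on all 8 arrays, at 89.8% to 98.9% of the brightest probe. Apoe, the ligand by which hepatocytes take up remnant particles, ranked between 6 and 10, at 62.0% to 67.5%. The other 7 genes ran between 5.77% and 38.4% of the brightest probe. Apoa4 ran from 0.565% to 7.09%. Probes differ in how well they bind, so these ranks order probes on an array and do not compare transcript levels between genes.

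On LF_HF replicate 1 the 75th percentile was raised by more than the apolipoprotein signals, so that dividing by this percentile lowered all 10 genes on that array. What raised the percentile was not tested. As deposited, the 10 genes differed between LF_HF replicates by 1.03-fold to 1.39-fold, with a median log2 difference of 0.24 (replicate 1 minus replicate 2). After scaling to the 75th percentile that median was -1.10, and the 10 values ran from -1.44 to -0.87. In the other groups the medians were -0.24 scaled and -0.17 unscaled in BD_HF, 0.30 and 0.45 in VAD_VAD, and 0.01 and -0.01 in LF_LF. For the 10 genes, differences that involve LF_HF are therefore given with both kinds of value. Other genes are given scaled, with the unscaled value beside those that passed the test. For a gene measured on every array, leaving out the scaling added 0.09 to LF_HF minus LF_LF, -0.32 to VAD_VAD minus LF_LF, -0.35 to BD_HF minus LF_LF and -0.43 to BD_HF minus LF_HF. The largest gap between replicates of any group was that of Apoa4 in VAD_VAD, 9.73-fold as deposited.

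**Figure D1:**
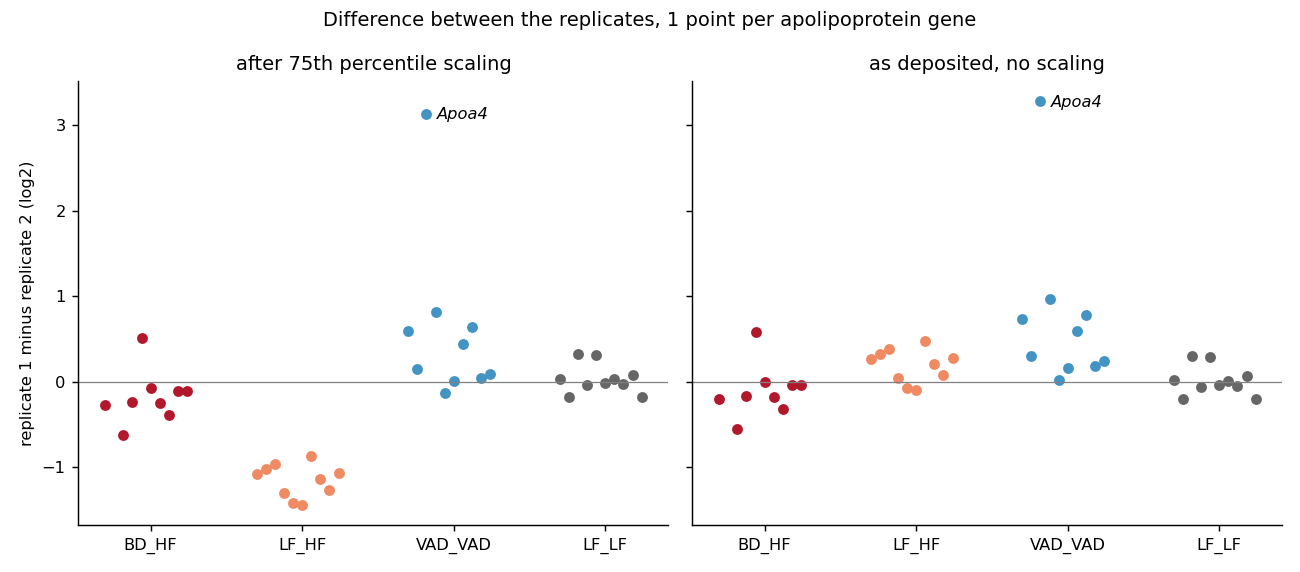
Difference between replicate 1 and replicate 2 (log2 units, vertical axis) for each apolipoprotein gene in each diet group, after scaling to the 75th percentile (left) and as deposited (right). All 10 LF_HF points lie between -1.44 and -0.87 after scaling and between -0.09 and 0.47 as deposited, and Apoa4 in VAD_VAD is the single point above 3.

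Apoc2 and Apoa4 had lower means than LF_LF in both high fat groups, by 2.70-fold and 7.31-fold in LF_HF and by 1.91-fold and 3.59-fold in BD_HF. Apoa1 and Apoa2 had higher means than LF_LF in all 3 other groups, Apoa1 by 1.98-fold in VAD_VAD, 1.70-fold in BD_HF and 1.46-fold in LF_HF, and Apoa2 by 1.92-fold in VAD_VAD and BD_HF and 1.59-fold in LF_HF. Apom had a mean 1.81-fold that of LF_LF in VAD_VAD. Apob, Apoc1, Apoc3, Apoe and Apoa5 differed from LF_LF by 0.53 log2 units or less in each group. None of the 10 genes passed the test in any comparison. The test was limma's moderated test on log2 intensity minus the array's 75th percentile, fitted to all 8 arrays, with Benjamini-Hochberg adjustment over 17354 genes and a threshold of 0.05. In LF_HF minus LF_LF it called 0 of 10, where 2.49% of all genes passed (0.617% higher and 1.87% lower). In BD_HF minus LF_LF it called 0 of 10, where 1.51% of all genes passed (0.455% higher and 1.05% lower). In VAD_VAD minus LF_LF it called 0 of 10, where 0.57% passed (0.0922% higher and 0.478% lower). In BD_HF minus LF_HF it called 0 of 10, where 0.00576% passed, a single gene that was lower. The F test over the 4 groups called 0 of 10, against 0.859% of all genes. At an unadjusted p under 0.05 there were 2 genes in LF_HF minus LF_LF (Apoc2 and Apoa4, where 16.6% of all genes reached that level), 1 in BD_HF minus LF_LF (Apoc2, 12.8% of all genes), and 0 in VAD_VAD minus LF_LF (10.3%) and in BD_HF minus LF_HF (5.45%).

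These shares rest on few arrays. In LF_HF minus LF_LF 432 genes were called with every array, 4220 without LF_HF replicate 2 and 1915 without LF_HF replicate 1. That count was 110 without either BD_HF array, 153 without either VAD_VAD array, 20 without LF_LF replicate 2 and 0 without LF_LF replicate 1. In BD_HF minus LF_HF the count was 1 with every array and 3036 without LF_HF replicate 2, and 0 without any other array. In VAD_VAD minus LF_LF it was 99 with every array, 921 without either LF_HF array, and 0 without any one array of BD_HF, LF_LF or VAD_VAD. In BD_HF minus LF_LF it was 262 with every array, 1582 without either LF_HF array, 111 without either VAD_VAD array, and 0 without any one array of BD_HF or LF_LF. The comparisons with LF_LF share the LF_LF arrays, and both comparisons with LF_HF share the LF_HF arrays.

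**Figure D2:**
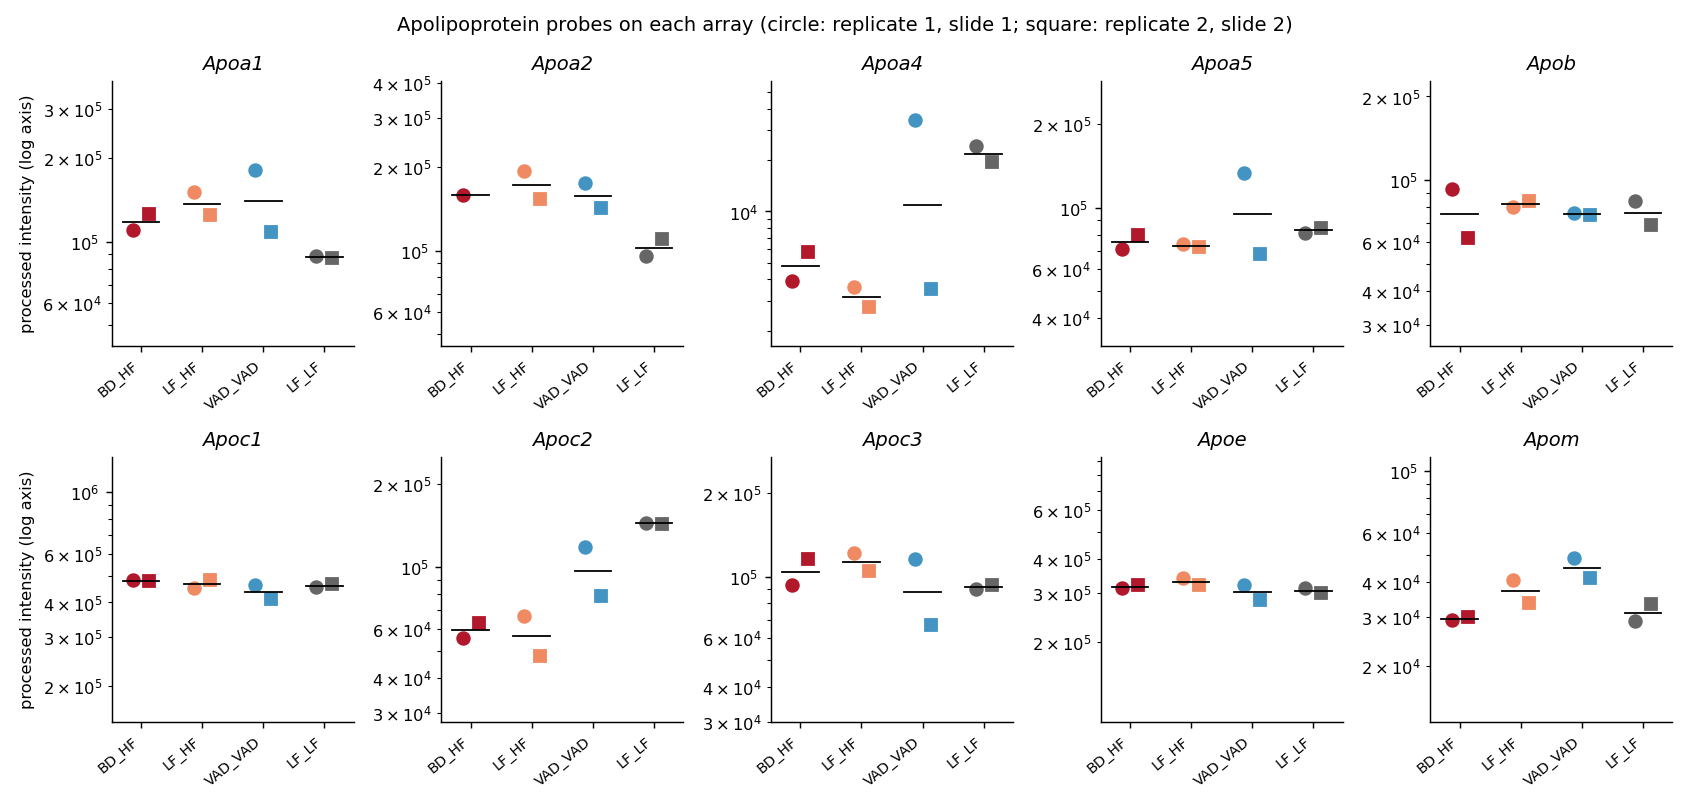
Processed intensity (log axis, arbitrary units) of the probe for each apolipoprotein gene on each array, by diet group; circles are replicate 1, squares replicate 2, bars the geometric mean of each group. Apoc2 is lower on all 6 other arrays than on the LF_LF arrays, Apoa4 is lower on all 4 high fat arrays, and Apoc1 and Apoe are nearly level. Of all genes, 17.3% lie below LF_LF without overlap in LF_HF, 48% in BD_HF and 44.6% in VAD_VAD.

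Apoc2 is the cofactor that lipoprotein lipase needs to hydrolyse triglyceride. The probe read 55884 and 63051 on the BD_HF arrays, 66693 and 48067 on those of LF_HF, 118712 and 78791 on those of VAD_VAD, and 144531 and 143306 on those of LF_LF. Every array of the 3 other groups was below both LF_LF arrays, and both high fat groups lay below both VAD_VAD arrays. After scaling, the group means were 8.01 ± 0.17 in BD_HF, 7.51 ± 0.62 in LF_HF, 8.68 ± 0.31 in VAD_VAD and 8.94 ± 0.02 in LF_LF (log2 units, SD, n = 2 each). The difference LF_HF minus LF_LF was -1.43 ± 0.39 (SE), or 2.70-fold lower, with a limma adjusted p of 0.122. BD_HF minus LF_LF was -0.93 ± 0.39 with an adjusted p of 0.373, and VAD_VAD minus LF_LF was -0.26 ± 0.39 with an adjusted p of 0.848. Both slides had the same direction in these comparisons: -1.88 and -0.98 for LF_HF minus LF_LF, -1.07 and -0.79 for BD_HF minus LF_LF, and -0.05 and -0.46 for VAD_VAD minus LF_LF. BD_HF minus LF_HF was 0.50 ± 0.39 (adjusted p = 0.786 by limma), and 0.07 unscaled, with the arrays of these groups overlapping. Unscaled, the differences from LF_LF were -1.28 in BD_HF and -0.57 in VAD_VAD. As deposited, both arrays lay below both LF_LF arrays for 17.3% of all genes in LF_HF, 48% in BD_HF and 44.6% in VAD_VAD. Both lay above for 13%, 14.1% and 10.5% in that order. The same shares stand beside the separations from LF_LF of the other apolipoproteins.

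Whether Apoc2 passed depended on the normalization, the background correction, the array weights and single arrays. With quantile normalization its difference was -1.59 in LF_HF minus LF_LF (limma adjusted p = 0.0141) and -1.24 in BD_HF minus LF_LF (0.0384), with 0.0480 in the F test. With normexp background correction the LF_HF minus LF_LF difference was -1.55 with an adjusted p of 0.0112. Under every other alternative that kept all arrays its adjusted p in LF_HF minus LF_LF was above the threshold, from 0.0661 to 0.446, with differences from -1.43 to -1.25. Array quality weights left that comparison above the threshold, and in BD_HF minus LF_LF gave an adjusted p of 0.0221. With no scaling at all the LF_HF minus LF_LF difference was -1.35 with an adjusted p of 0.2596. Leaving out LF_HF replicate 2 gave -1.87 with an adjusted p of 0.00883, and leaving out LF_HF replicate 1 gave -0.996 with 0.0977. The direction was the same in all of these.

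Apoa4 rides on chylomicrons and high density lipoprotein, and in mice is made in the intestine and in the liver. Its probe read 3934 and 5747 on the BD_HF arrays, 3597 and 2756 on those of LF_HF, 34252 and 3521 on those of VAD_VAD, and 24077 and 19542 on those of LF_LF. All 4 high fat arrays lay below both LF_LF arrays, and the VAD_VAD arrays lay on either side of LF_LF. Scaled means were 4.36 ± 0.44 in BD_HF, 3.34 ± 0.68 in LF_HF, 5.54 ± 2.22 in VAD_VAD and 6.21 ± 0.23 in LF_LF (log2 units, SD, n = 2 each). The LF_HF minus LF_LF difference was -2.87 ± 0.91 (SE), or 7.31-fold lower, with a limma adjusted p of 0.179, and the slides gave -3.51 and -2.23. As deposited, with no scaling, that difference was -2.78, or 6.89-fold. BD_HF minus LF_LF was -1.84 ± 0.91 (adjusted p = 0.481 by limma), with slides at -2.32 and -1.37.

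Apoa4 passed the threshold under 1 of the alternatives, normexp background correction, at -2.96 with a limma adjusted p of 0.0378 in LF_HF minus LF_LF. The 2 VAD_VAD arrays carry much of the spread that its tests share: without either of them the adjusted p for LF_HF minus LF_LF was 0.0568. VAD_VAD minus LF_LF was -0.67 ± 0.91 (adjusted p = 0.834 by limma), but slide 1 gave 0.74 and slide 2 gave -2.07. Leaving out VAD_VAD replicate 2 turned the difference to 0.90, and leaving out replicate 1 gave -2.23, so no direction can be given for Apoa4 under vitamin A deficiency. BD_HF minus LF_HF was 1.03 ± 0.91 (adjusted p = 0.786 by limma), and 0.59 unscaled, with both BD_HF arrays above both LF_HF arrays.

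**Figure D3:**
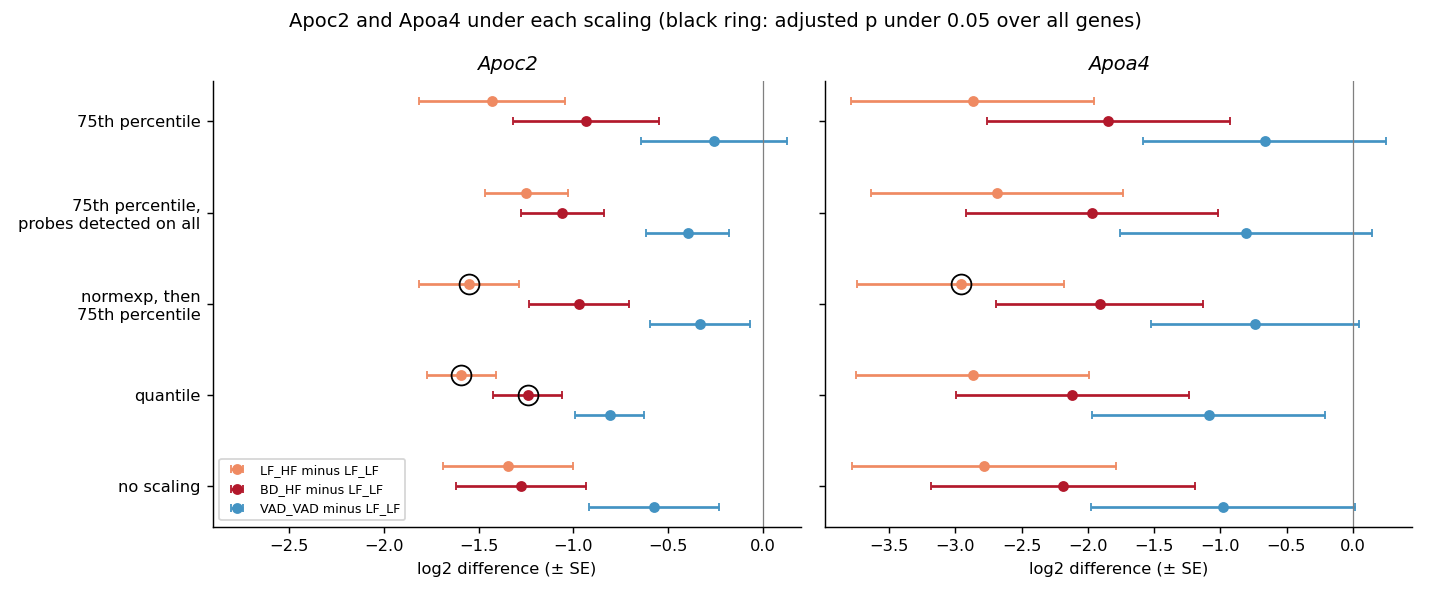
Difference of Apoc2 (left) and Apoa4 (right) from LF_LF under each scaling of the arrays (log2 units, bars ± SE); colours mark LF_HF minus LF_LF, BD_HF minus LF_LF and VAD_VAD minus LF_LF. All differences are below 0, and rings mark the 4 with an adjusted p under the threshold, 2 for Apoc2 with quantile normalization and 1 for each gene with normexp.

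Apoa1 activates the enzyme that esterifies cholesterol on high density lipoprotein. The probe read 110045 and 125998 on the BD_HF arrays, 150320 and 124567 on those of LF_HF, 181465 and 108694 on those of VAD_VAD, and 88640 and 87608 on those of LF_LF. As deposited, all 6 arrays of the other groups were above both LF_LF arrays, while after scaling LF_HF replicate 1 lay between them. The scaled difference VAD_VAD minus LF_LF was 0.99 ± 0.43 (SE), or 1.98-fold, with a limma adjusted p of 0.492. BD_HF minus LF_LF was 0.76 ± 0.43 (adjusted p = 0.546) and LF_HF minus LF_LF was 0.55 ± 0.43 (adjusted p = 0.576). With no scaling the 3 differences were 0.67, 0.42 and 0.63, and with quantile normalization 0.53, 0.40 and 0.39. BD_HF minus LF_HF was 0.21 scaled and -0.22 unscaled.

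Apoa2, the partner of Apoa1 on high density lipoprotein, gave 158621 on 1 BD_HF array, 193218 and 153794 in LF_HF, 175127 and 142035 in VAD_VAD, and 95462 and 109704 in LF_LF. The spot of BD_HF replicate 2 was marked as an outlier and was left out, so the BD_HF value has no replicate, and its test assumes that this array varies like those of the other groups. Every measured array of the other groups was above both LF_LF arrays. The scaled difference VAD_VAD minus LF_LF was 0.94 ± 0.42 (adjusted p = 0.528 by limma), BD_HF minus LF_LF was 0.94 ± 0.52 (adjusted p = 0.542) and LF_HF minus LF_LF was 0.67 ± 0.42 (adjusted p = 0.487). Unscaled, these differences were 0.62, 0.63 and 0.75. BD_HF minus LF_HF was 0.27 scaled and -0.12 unscaled.

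Apom binds sphingosine 1-phosphate on high density lipoprotein and is a lipocalin, the protein family to which plasma retinol-binding protein also belongs. The Apom probe read 29135 and 29891 on the BD_HF arrays, 40713 and 33617 on those of LF_HF, 48958 and 41397 on those of VAD_VAD, and 28960 and 33256 on those of LF_LF. Both VAD_VAD arrays were the highest of all. VAD_VAD minus LF_LF was 0.85 ± 0.40 scaled (adjusted p = 0.537 by limma), with slides at 0.99 and 0.72, and 0.54 unscaled. LF_HF minus LF_LF was 0.17 scaled and 0.25 unscaled, but -0.37 without LF_HF replicate 2. BD_HF minus LF_LF was 0.27 scaled and -0.07 unscaled, and BD_HF minus LF_HF was 0.10 scaled and -0.33 unscaled.

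Apob, the scaffold protein with 1 copy per particle, had 5 probes on the array. The brightest gave 92683 and 61912 on the BD_HF arrays, 80049 and 83901 on those of LF_HF, 76009 and 74978 on those of VAD_VAD, and 83893 and 68680 on those of LF_LF. The groups overlapped as deposited. Scaled differences were 0.32 ± 0.49 for BD_HF minus LF_HF, 0.03 ± 0.49 for LF_HF minus LF_LF, 0.31 ± 0.49 for VAD_VAD minus LF_LF and 0.34 ± 0.49 for BD_HF minus LF_LF (SE). The other 4 probes gave 0.11 to 0.17 for LF_HF minus LF_LF and 0.24 to 0.46 for VAD_VAD minus LF_LF, the same direction as the brightest. Unscaled, the difference of the brightest probe from LF_LF was 0.11 in LF_HF, -0.01 in VAD_VAD and -0.003 in BD_HF, and BD_HF minus LF_HF was -0.11.

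Apoc3 slows lipoprotein lipase and the uptake of remnants. Its brighter probe gave 93007 and 115983 on the BD_HF arrays, 121097 and 104750 on those of LF_HF, 115174 and 66780 on those of VAD_VAD, and 90204 and 93040 on those of LF_LF. The VAD_VAD arrays lay on either side of LF_LF. Scaled differences were 0.53 ± 0.45 for BD_HF minus LF_LF, 0.21 ± 0.45 for LF_HF minus LF_LF, 0.25 ± 0.45 for VAD_VAD minus LF_LF and 0.31 ± 0.45 for BD_HF minus LF_HF (SE). The second probe, which shares 50 of its 60 bases, gave 0.52, 0.16, 0.24 and 0.36. Unscaled, LF_HF minus LF_LF was 0.30, VAD_VAD minus LF_LF was -0.06 and BD_HF minus LF_HF was -0.12.

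Apoa5, made almost only in the liver, promotes triglyceride hydrolysis at the vessel wall. The brighter of its 2 probes gave 70826 and 79580 on the BD_HF arrays, 74244 and 71959 on those of LF_HF, 133095 and 68172 on those of VAD_VAD, and 81159 and 84826 on those of LF_LF. As deposited, all 4 high fat arrays were below both LF_LF arrays, and the VAD_VAD arrays lay on either side. Scaled differences were -0.27 ± 0.49 for LF_HF minus LF_LF, 0.52 ± 0.49 for VAD_VAD minus LF_LF, 0.20 ± 0.49 for BD_HF minus LF_LF and 0.47 ± 0.49 for BD_HF minus LF_HF (SE). The second probe disagreed in direction for LF_HF minus LF_LF, at 0.05, and gave 0.88 for VAD_VAD minus LF_LF. Unscaled, LF_HF minus LF_LF was -0.18, BD_HF minus LF_LF was -0.14 and BD_HF minus LF_HF was 0.04.

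Apoe and Apoc1 were nearly level as deposited. Their probes read 62.0% to 67.5% and 89.8% to 98.9% of the brightest probe, and whether signals this high still follow the amount of RNA was not tested. Apoe gave 313241 and 321408 on the BD_HF arrays, 339530 and 321133 on those of LF_HF, 322815 and 283429 on those of VAD_VAD, and 313294 and 299843 on those of LF_LF. Apoc1 gave 480064 and 479511 on the BD_HF arrays, 451945 and 482334 on those of LF_HF, 461051 and 412342 on those of VAD_VAD, and 452854 and 465657 on those of LF_LF. Unscaled differences from LF_LF were 0.11 in LF_HF, -0.02 in VAD_VAD and 0.05 in BD_HF for Apoe, and 0.02, -0.07 and 0.06 for Apoc1. Scaled, they were 0.02 ± 0.43, 0.30 ± 0.43 and 0.40 ± 0.43 for Apoe, and -0.06 ± 0.47, 0.24 ± 0.47 and 0.41 ± 0.47 for Apoc1 (SE). BD_HF minus LF_HF was 0.37 ± 0.43 for Apoe and 0.47 ± 0.47 for Apoc1. Without LF_HF replicate 2 both passed the threshold in BD_HF minus LF_HF, at 1.01 for Apoe (adjusted p = 0.0410 by limma) and 1.19 for Apoc1 (0.0228). That value rests on LF_HF replicate 1 alone, the array with the raised 75th percentile. Unscaled, the BD_HF minus LF_HF difference was -0.06 for Apoe and 0.04 for Apoc1.

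**Figure D4:**
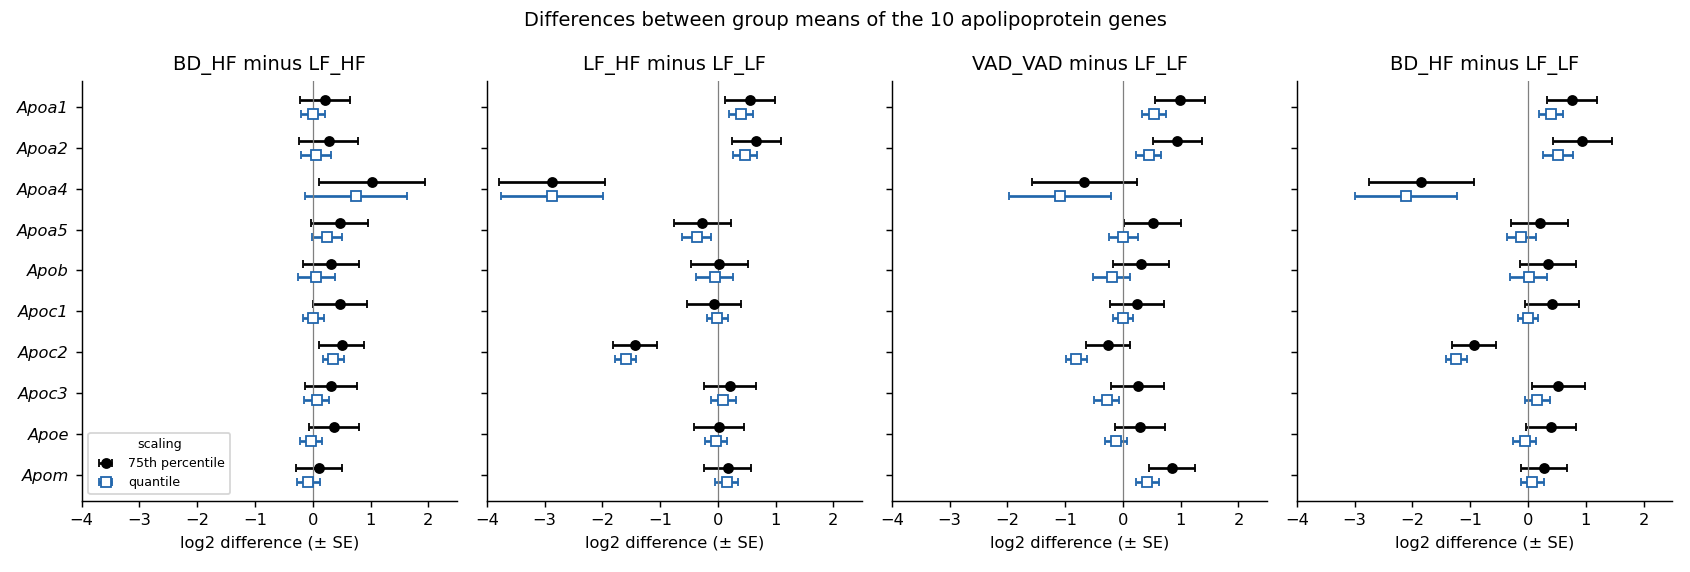
Log2 difference (± SE) of each apolipoprotein gene in the 4 comparisons, with 75th percentile scaling (black circles) and quantile normalization (open squares). Apoc2 and Apoa4 lie below 0 in the 3 comparisons with LF_LF under both scalings, and Apoa1 and Apoa2 lie above 0 in them.

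Counted over the genes, 6 of 10 scaled differences were above 0 in LF_HF minus LF_LF, 8 of 10 in VAD_VAD minus LF_LF, 8 of 10 in BD_HF minus LF_LF and 10 of 10 in BD_HF minus LF_HF, beside 48.7%, 56.7%, 58.5% and 61.7% of all genes tested. Without scaling the counts were 7, 4, 5 and 4 of 10 in the same order of comparisons, beside 52.1%, 33.6%, 31.6% and 24.6% of all genes. The scaled medians were 0.02, 0.30, 0.37 and 0.35, beside -0.02, 0.09, 0.11 and 0.17 over all genes tested. Among the 16 hepatocyte markers tested, 11, 16, 13 and 15 had scaled differences above 0 in that order of comparisons. The medians of these markers were 0.03, 0.59, 0.40 and 0.32 scaled, and 0.11, 0.27, 0.06 and -0.11 unscaled. Without scaling the medians over the 10 genes were 0.11, -0.01, 0.02 and -0.09, beside 0.03, -0.22, -0.23 and -0.23 over all genes. With quantile normalization they were -0.02, -0.06, 0.004 and 0.06, beside -0.22, -0.01, 0.04 and 0.20. That method holds Apoc1, of equal rank on all arrays, near 0. The median changed sign with the scaling in LF_HF minus LF_LF, VAD_VAD minus LF_LF and BD_HF minus LF_HF, and stayed above 0 in BD_HF minus LF_LF.

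Whether the arrays of a pair of groups overlapped was counted for each gene on both scales. In LF_HF minus LF_LF, 1 of 10 genes was higher on both arrays after scaling (Apoa2, background 20.9% of genes) and 2 were lower (Apoa4 and Apoc2, background 21.3%). Unscaled, 5 were higher (background 13%) and 3 lower (background 17.3%). In VAD_VAD minus LF_LF, 7 of 10 were higher after scaling (background 32.4%) and 1 lower, Apoc2 (background 25.5%). Unscaled, 3 were higher, Apoa1, Apoa2 and Apom (background 10.5%), and Apoc2 was again the 1 lower (background 44.6%). In BD_HF minus LF_LF, of 9 genes with all arrays, 6 were higher (background 34.2%) and 2 lower (background 25.9%) after scaling, and 2 higher (background 14.1%) and 3 lower (background 48%) without it. In BD_HF minus LF_HF, 1 of 9 was higher on either scale, Apoa4 (background 17.5% scaled, 2.08% unscaled). None was lower after scaling (background 9.56%), and 1 was lower unscaled, Apom (background 11.9%).

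The genes most like Apoa4 over the 8 arrays, of 16255 searched on scaled values, were Hmgb2 (Pearson r = 0.984), Cidec (0.979), Hmox1 (0.978) and Ets2 (0.977), behind a probe without a gene name at 0.996. These points share the 8 arrays. The correlations are descriptions and carry no test.

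The machinery that loads and exports the Apob particle did not pass the test either. Of 21 genes of lipoprotein assembly and secretion, 0 passed in each of the 4 comparisons (limma, adjusted p), and at an unadjusted p under 0.05 there were 1 in LF_HF minus LF_LF, 6 in VAD_VAD minus LF_LF, 4 in BD_HF minus LF_LF and 1 in BD_HF minus LF_HF. These are 4.76%, 28.6%, 19% and 4.76% of the list, beside 16.6%, 10.3%, 12.8% and 5.45% of all genes, and the same shares of all genes stand beside the unadjusted counts of the other lists. Mttp, which transfers lipid onto Apob, averaged 2.10 ± 0.02 in BD_HF, 1.63 ± 0.55 in LF_HF, 2.25 ± 0.34 in VAD_VAD and 1.11 ± 0.08 in LF_LF (scaled log2, SD, n = 2 each). Its differences from LF_LF were 0.99 in BD_HF, 0.52 in LF_HF and 1.14 in VAD_VAD, with limma adjusted p of 0.322, 0.532 and 0.323. Tm6sf2, needed to fill the particle with lipid, stood 0.92 from LF_LF in VAD_VAD (adjusted p = 0.471), 0.45 in BD_HF and -0.11 in LF_HF. Abca1, which lipidates Apoa1, stood between 0.31 and 0.51 from LF_LF in the other groups, with adjusted p from 0.786 to 0.807.

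Among 15 enzymes of plasma lipid processing and their regulators, 1 fell and 0 rose in LF_HF minus LF_LF and in BD_HF minus LF_LF, and 0 passed in VAD_VAD minus LF_LF and in BD_HF minus LF_HF, where 4 and 3 had an unadjusted p under 0.05. The 1 was Lpl, the lipase that Apoc2 activates, which adult hepatocytes normally hold at low levels. The Lpl probe read 226 and 272 in BD_HF, 163 on the 1 LF_HF array whose spot was not an outlier, 662 and 398 in VAD_VAD, and 2270 and 2587 in LF_LF. It fell by 2.95 ± 0.36 in BD_HF on the log2 scale (adjusted p = 0.0237 by limma), and the unscaled difference was -3.29. The LF_HF minus LF_LF difference was -3.31 ± 0.44 (adjusted p = 0.0243), and -3.89 unscaled. It rests on 1 LF_HF array, which the test assumes to vary like those of the other groups. On this probe the call therefore has no replicate check. Another Lpl probe, detected on all arrays, stood for the gene under the stricter filter only, and its readings are not reported here. The VAD_VAD minus LF_LF difference was -1.92 ± 0.36 (adjusted p = 0.106). The call in LF_HF was lost without LF_LF replicate 1 or 2 (adjusted p = 0.193 and 0.216), and without either BD_HF array (0.0786) or either VAD_VAD array (0.0515). The call in BD_HF was lost without either LF_LF array (0.254 and 0.233), either BD_HF array (0.248 and 0.175) or either VAD_VAD array (0.0507).

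The rest of that list did not pass. Pltp, which remodels high density lipoprotein, stood 2.22 from LF_LF in VAD_VAD (adjusted p = 0.184 by limma), 0.91 in BD_HF and -0.54 in LF_HF. Lipc, the hepatic lipase, stood 1.59 from LF_LF in BD_HF, 1.18 in LF_HF and 1.13 in VAD_VAD, with adjusted p of 0.144, 0.212 and 0.384. Lcat, the cholesterol-esterifying enzyme that Apoa1 activates, stood 0.82, 0.26 and 0.91 from LF_LF in those groups. Angptl4, an inhibitor of lipoprotein lipase, stood 0.28 from LF_LF in BD_HF, -0.37 in LF_HF and 0.84 in VAD_VAD.

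Of 18 receptors and clearance genes, 16 were tested. In LF_HF minus LF_LF 1 fell, Cd36, a scavenger receptor for fatty acids and modified lipoproteins, and 0 rose. In the other comparisons 0 passed, with 4 at an unadjusted p under 0.05 in VAD_VAD minus LF_LF, 3 in BD_HF minus LF_LF and 5 in BD_HF minus LF_HF. The Cd36 probe read 430 and 582 on the BD_HF arrays, 513 and 139 on those of LF_HF, 804 and 585 on those of VAD_VAD, and 1591 and 1820 on those of LF_LF. It fell by 2.76 ± 0.35 in LF_HF (adjusted p = 0.0147 by limma), with an unscaled difference of -2.67, and the call was lost without LF_LF replicate 1 or 2 (0.163 and 0.187). Scarb1, the high density lipoprotein receptor, stood 0.23 from LF_LF in BD_HF, 0.01 in LF_HF and 0.49 in VAD_VAD.

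Of 29 regulators of apolipoprotein genes, 28 were tested, and 1 rose in LF_HF minus LF_LF while 0 fell. It was Nr0b2, a repressor induced by the bile acid receptor, with 206 and 261 on the BD_HF arrays, 1202 and 622 on those of LF_HF, 163 and 125 on those of VAD_VAD, and 135 and 151 on those of LF_LF. It rose by 2.51 ± 0.33 in LF_HF on the log2 scale (adjusted p = 0.0155 by limma), with an unscaled difference of 2.60, and the call was lost without LF_LF replicate 1 or 2 (0.194 and 0.179). In the other comparisons 0 passed, with 2 at an unadjusted p under 0.05 in VAD_VAD minus LF_LF, 9 in BD_HF minus LF_LF and 2 in BD_HF minus LF_HF. Ppara, the fatty acid receptor that controls Apoa5 and Apoc3, stood 1.54 from LF_LF in BD_HF (adjusted p = 0.120), 0.56 in LF_HF and 0.53 in VAD_VAD. Creb3l3, which drives Apoa4 and Apoc2 in mouse liver, stood 0.42, -0.23 and 0.52 from LF_LF in those groups. Hnf4a, a hepatocyte activator of many of these genes, stood 0.45, 0.35 and 1.04, and the oxysterol receptor Nr1h3 stood 0.20, -0.18 and 0.13. With no filter on dim probes or with no scaling, none of the calls on Lpl, Cd36 and Nr0b2 was made, with adjusted p from 0.0730 to 0.222. With array quality weights the calls in LF_HF minus LF_LF were not made (0.152 to 0.263), nor was that on Cd36 with the percentile of probes detected on all arrays (0.0586).

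Of 15 other apolipoprotein genes tested, from a list of 17, 0 passed in each comparison, with 2 at an unadjusted p under 0.05 in VAD_VAD minus LF_LF, 2 in BD_HF minus LF_LF and 0 in the comparisons of LF_HF.

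**Figure D5:**
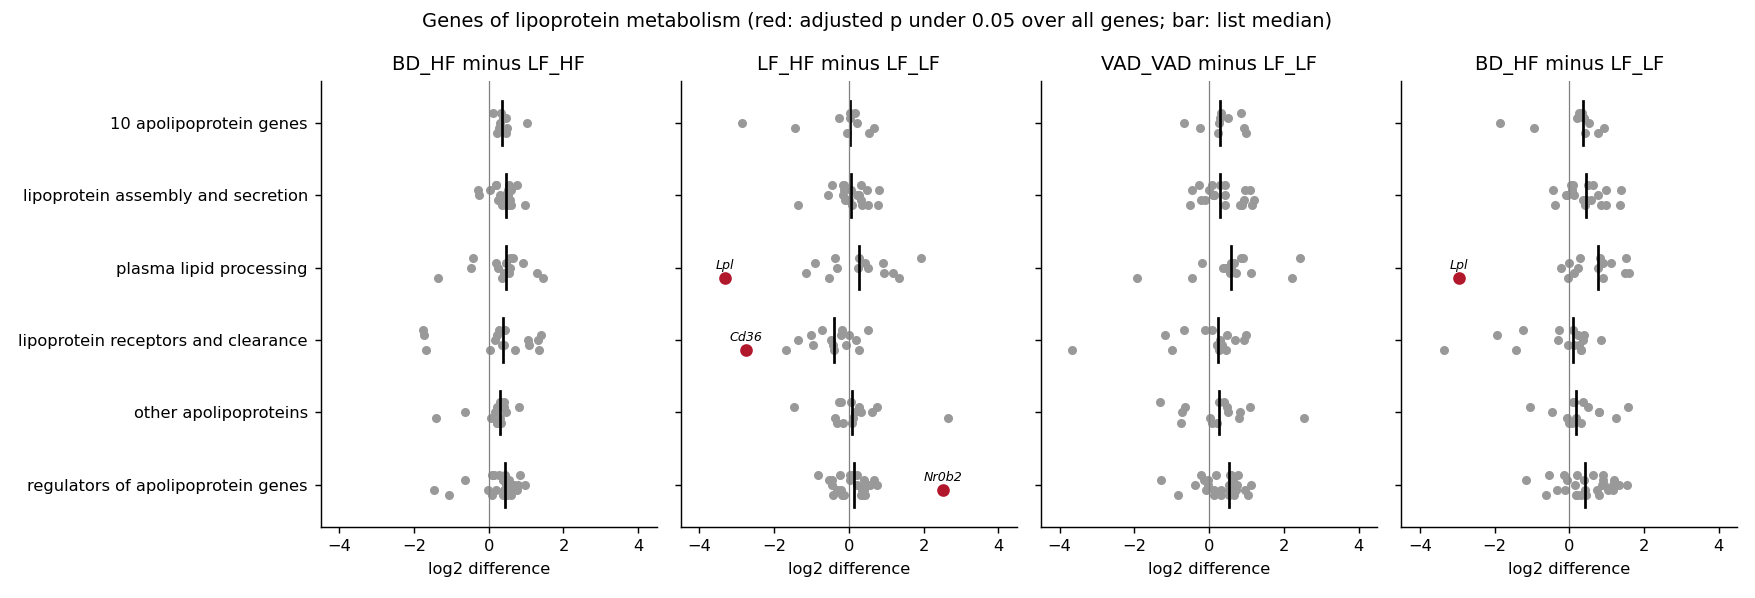
Log2 difference of each gene of lipoprotein metabolism in the 4 comparisons, by list; red points passed the test and bars are list medians. Lpl, Cd36 and Nr0b2 are the genes that passed in LF_HF minus LF_LF, Lpl is the one that passed in BD_HF minus LF_LF, and the 10 apolipoprotein genes have no red point.

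Macrophages also make Apoe, Apoc1 and Apoc2, and in these bulk samples fewer cells of a type cannot be told apart from less RNA per cell. All 12 macrophage markers were tested, and 11 or 12 were well above background on each array. These summed to intensities of 23733 and 25569 on the BD_HF arrays and 39730 and 13421 on those of LF_HF. The sums were 24255 and 31266 on the VAD_VAD arrays and 64573 and 57391 on those of LF_LF. That sum and Apoc2 were highest on both LF_LF arrays, and Apoe and Apoc1 were not. Lyz2 made up between 21.0% and 46.3% of the macrophage sum. Without it LF_HF replicate 1 gave 31393, against 34666 and 31320 on the LF_LF arrays. Of the 12 markers, 3 had scaled differences above 0 in LF_HF minus LF_LF, 3 in VAD_VAD minus LF_LF and 5 in BD_HF minus LF_LF. In LF_HF minus LF_LF 4 of 12 fell (Cd68, Trem2, Lyz2 and Ctss), in VAD_VAD minus LF_LF 1 (Trem2), and in BD_HF minus LF_LF 2 (Trem2 and Gpnmb) while Timd4 rose. With quantile normalization these counts were 4, 1 and 3 that fell and 0 that rose. Timd4 was dim, with 72.4 and 81.3 on the BD_HF arrays and 21.4 and 30.4 on those of LF_LF. Over all genes, 1.87% were called lower in LF_HF minus LF_LF, 0.478% in VAD_VAD minus LF_LF and 1.05% in BD_HF minus LF_LF. In the last 2 of these no gene was called without any one array of either group compared, and in LF_HF minus LF_LF none without LF_LF replicate 1, so these marker calls were lost there too. Of 9 stellate cell and fibroblast markers, 4 fell in each of the 3 comparisons with LF_LF, Col1a1, Col3a1 and Pdgfrb in all of them, Lum in LF_HF and BD_HF, and Lrat in VAD_VAD. Their summed intensity ran from 21911 to 26941 in BD_HF, 12850 to 31366 in LF_HF, 23542 to 35122 in VAD_VAD and 55310 to 62496 in LF_LF, of which Dcn, not among those called, made up 67.6% to 85.1%. With quantile normalization 4 fell in LF_HF, 1 in VAD_VAD and 3 in BD_HF. The part of either cell type in the Apoc2 values was not tested. Beside Apoa4, of 12 intestinal epithelium markers 6 passed the filter on dim probes. On LF_HF replicate 1, the array with raised negative controls, 11 were well above background, and between 3 and 7 on each other array. Mep1b was above it on none, and 0 of the 6 passed the test in any comparison (limma). At an unadjusted p under 0.05 there were 3 in LF_HF minus LF_LF, 1 in VAD_VAD minus LF_LF, 0 in BD_HF minus LF_LF and 2 in BD_HF minus LF_HF. The intestinal markers summed to 29132 and 39640 on the BD_HF arrays, 34236 and 22655 on those of LF_HF, 29748 and 22014 on those of VAD_VAD, and 26555 and 27187 on those of LF_LF. Fabp2 alone carried 91.6% to 97.3% of these sums, and the rest of the list summed to 1277 and 1052 on the BD_HF arrays, 2878 and 627 on those of LF_HF, 1278 and 919 on those of VAD_VAD, and 1436 and 1845 on those of LF_LF. The part of intestinal tissue in the Apoa4 values was not tested. Of the adipocyte, pancreatic acinar and blood markers, 3 of 7, 5 of 9 and 3 of 5 were tested. The 1 that passed was Cela2a, an acinar marker called higher in LF_HF minus LF_LF. Its readings were dim, 131 and 28.8 on the LF_HF arrays and 10.6 and 13.7 on those of LF_LF. The largest was on LF_HF replicate 1, the array with raised negative controls. The adipocyte markers summed to 3020 on BD_HF replicate 2 and 1498 on LF_HF replicate 1, and to 23.4 to 196 elsewhere. Cfd gave 2998 and 930 of these. The acinar markers summed to 2719 on LF_HF replicate 1 and 535 to 1653 elsewhere. The blood markers summed to 73827 on VAD_VAD replicate 2 and 17319 to 45095 elsewhere. The part of these tissues in the apolipoprotein values was not tested. Of the 16 hepatocyte markers 1 passed, Cyp2e1, which rose in BD_HF minus LF_LF.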

How the data were processed

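Liver RNA of 8 samples was hybridised to one-colour Cy3 Agilent arrays (design 014868). Per the file headers, Feature Extraction 10.7.3.1 gave each spot's deposited intensity, background-subtracted and detrended within the array, with no scaling between arrays. The value table of the series matched that processed intensity within 0.497%. Precision is limited by 2 arrays a group.

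Outlier and control spots were left out and spots of a probe averaged. The log2 of the deposited processed intensity was taken, minus the log2 of the array's 75th percentile. The 26224 probes that the software marked well above background on each array of 1 or more groups were kept, gene names were updated to RefSeq symbols for 68.5% of probes and kept as in the files otherwise, and the brightest probe stood for a gene. limma 3.58.1 in R 4.3.3 fitted all 8 arrays by group, with Benjamini-Hochberg adjustment over 17354 genes and a threshold of 0.05, after a test on simulated data. Tables and figures used Python 3.11.15, pandas 2.3.3 and matplotlib 3.10.9.

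Replicate numbers coincide with the 2 slides in the headers, and deviations of same-numbered arrays correlated at 0.0998 to 0.300 over the 6 pairs of groups. The numbers were taken to pair the arrays because same-numbered arrays share a slide, per the file headers, and the slide cannot be told apart from anything else that shares the number. The comparison BD_HF minus LF_LF is not in the study's design text and was added. Alternatives were normexp (offset 50), quantile normalization, the percentile over probes detected on all arrays, no filter, a stricter filter, the mean of a gene's probes, trended and robust variances, array quality weights, the replicate block, the series table, leaving out each array, and no scaling, the last chosen after seeing the data.

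The members and the lists of pathway genes and cell markers were chosen with earlier results of these data known. Named genes were all 10 members, up to 4 called genes of each list and comparison, 16 pathway genes given whatever their result (some are not reported here), and the 5 genes most like the member with the widest range of group means. Markers that passed the test are also named.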

Additional observations from a re-analysis of the deposited data

How the results depend on the processing

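Differences are log2 values, and causes were not tested. With 2 arrays a group every count rests on few samples, and in this design 1 array, LF_HF replicate 1, stood apart in background and percentile. Apoc2 kept its direction below LF_LF in all 3 other groups, and Apoa4 in both high fat groups, under every alternative run. Probes near background limit precision for dim genes such as Lpl, Cd36 and Nr0b2, and the apolipoproteins are far above it. With the value table of the series in place of the scanner files, which holds the same signals rounded, differences were computed without a test and none turned sign. A separate slide block was not run, because slides carry the replicate numbers. The block changed no call on an apolipoprotein. Quantile normalization gives equal ranks equal values, so Apoc1, ranked 2nd among genes on every array, is held near 0. Its sign under that setting carries no information. With quantile normalization, the genes called numbered 0 in BD_HF minus LF_HF, 900 in LF_HF minus LF_LF and 286 in the F test, and the apolipoproteins called 1 in LF_HF minus LF_LF, 1 in BD_HF minus LF_LF and 1 in the F test. The sign turned for Apoe (-0.025), Apom (-0.082), Abca1 (-0.040), Scarb1 (-0.046) and Hnf4a (-0.16) in BD_HF minus LF_HF, and for Apob (-0.054), Apoe (-0.036) and Tm6sf2 (0.010) in LF_HF minus LF_LF, and for Apob (-0.19), Apoc3 (-0.28), Apoe (-0.13) and Nr1h3 (-0.16) in VAD_VAD minus LF_LF, and for Apoa5 (-0.12), Apoc1 (-0.00081), Apoe (-0.061) and Nr1h3 (-0.0014) in BD_HF minus LF_LF. With the percentile taken over probes detected on all arrays, the genes called numbered 0 in BD_HF minus LF_HF, 186 in LF_HF minus LF_LF, 14 in VAD_VAD minus LF_LF, 162 in BD_HF minus LF_LF and 52 in the F test. The sign turned for Apoa1 (-0.10), Apom (-0.21), Abca1 (-0.11), Scarb1 (-0.087) and Hnf4a (-0.21) in BD_HF minus LF_HF, and for Apoc1 (0.12), Tm6sf2 (0.072) and Nr1h3 (0.0028) in LF_HF minus LF_LF, and for Nr1h3 (-0.013) in VAD_VAD minus LF_LF. With normexp background correction, the genes called numbered 2609 in LF_HF minus LF_LF, 359 in VAD_VAD minus LF_LF, 700 in BD_HF minus LF_LF and 713 in the F test, and the apolipoproteins called 2 in LF_HF minus LF_LF and 1 in the F test. The sign turned for Apob (-0.063), Apoe (-0.11) and Scarb1 (-0.11) in LF_HF minus LF_LF. With no filter on dim probes, the genes called numbered 0 in BD_HF minus LF_HF, 32 in LF_HF minus LF_LF, 0 in VAD_VAD minus LF_LF, 0 in BD_HF minus LF_LF and 0 in the F test. With only probes detected on all arrays, the genes called numbered 0 in BD_HF minus LF_HF, 160 in VAD_VAD minus LF_LF and 412 in the F test. The sign turned for Lpl (-0.056, on another probe of the gene) in BD_HF minus LF_HF. With the mean of all probes of a gene, the genes called numbered 164 in BD_HF minus LF_LF. The sign turned for Tm6sf2 (0.45) in LF_HF minus LF_LF. With trended and robust variances, the genes called numbered 805 in LF_HF minus LF_LF, 298 in VAD_VAD minus LF_LF, 610 in BD_HF minus LF_LF and 760 in the F test. With array quality weights, the genes called numbered 0 in BD_HF minus LF_HF, 23 in LF_HF minus LF_LF, 1165 in VAD_VAD minus LF_LF, 2793 in BD_HF minus LF_LF and 434 in the F test, and the apolipoproteins called 1 in BD_HF minus LF_LF. With the replicate number, and so the slide, as a replicate block, the genes called numbered 0 in BD_HF minus LF_HF and 57 in VAD_VAD minus LF_LF. With no scaling, chosen after seeing the data, the genes called numbered 0 in BD_HF minus LF_HF, 36 in LF_HF minus LF_LF, 0 in VAD_VAD minus LF_LF, 17 in BD_HF minus LF_LF and 7 in the F test. The sign turned for Apoa1 (-0.22), Apoa2 (-0.12), Apob (-0.11), Apoc3 (-0.12), Apoe (-0.058), Apom (-0.33), Abca1 (-0.23), Scarb1 (-0.21), Lipc (-0.022), Hnf4a (-0.33) and Nr1h3 (-0.054) in BD_HF minus LF_HF, and for Apoc1 (0.024) in LF_HF minus LF_LF, and for Apob (-0.0079), Apoc1 (-0.075), Apoc3 (-0.063), Apoe (-0.019), Nr1h3 (-0.19) and Nr0b2 (-0.0016) in VAD_VAD minus LF_LF, and for Apoa5 (-0.14), Apob (-0.0030), Apom (-0.073), Scarb1 (-0.11), Angptl4 (-0.063) and Nr1h3 (-0.15) in BD_HF minus LF_LF.

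Leaving out each array in turn gave counts of genes called of 0 to 3036 in BD_HF minus LF_HF, 0 to 4220 in LF_HF minus LF_LF, 0 to 921 in VAD_VAD minus LF_LF, 0 to 1582 in BD_HF minus LF_LF and 0 to 3977 in the F test, and counts of apolipoproteins called of 0 to 2 in BD_HF minus LF_HF, 0 to 1 in LF_HF minus LF_LF and 0 to 2 in the F test. In BD_HF minus LF_HF the range crossed 0 for Apoa1 (-0.32 to 0.75), Apoa2 (-0.23 to 0.78), Apoa5 (-0.18 to 1.12), Apob (-0.39 to 1.02), Apoc1 (-0.25 to 1.19), Apoc3 (-0.25 to 0.88), Apoe (-0.26 to 1.01), Apom (-0.43 to 0.64), Abca1 (-0.45 to 0.84), Scarb1 (-0.35 to 0.80), Lcat (-0.077 to 1.20), Lipc (-0.067 to 0.88), Angptl4 (-0.18 to 1.49), Hnf4a (-0.67 to 0.87) and Nr1h3 (-0.30 to 1.06). In LF_HF minus LF_LF the range crossed 0 for Apoa5 (-0.92 to 0.38), Apob (-0.68 to 0.73), Apoc1 (-0.78 to 0.66), Apoc3 (-0.35 to 0.78), Apoe (-0.61 to 0.65), Apom (-0.37 to 0.70), Tm6sf2 (-0.54 to 0.32), Abca1 (-0.33 to 0.96), Scarb1 (-0.56 to 0.58), Lcat (-0.38 to 0.90), Angptl4 (-1.21 to 0.47), Hnf4a (-0.42 to 1.12), Creb3l3 (-0.73 to 0.28) and Nr1h3 (-0.86 to 0.50). In VAD_VAD minus LF_LF the range crossed 0 for Apoa4 (-2.23 to 0.90), Apoc3 (-0.066 to 0.57) and Abca1 (-0.040 to 0.92). In BD_HF minus LF_LF the range crossed 0 for Scarb1 (-0.030 to 0.50).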
